A study of Mus musculus with 15 samples.

Results

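Adult auditory nerve was compared with the nerve at postnatal day 21 (P21), the last interval of a developmental series of bulk RNA sequencing in mice. The comparison used 6 of the 15 libraries, 3 per age, and all genes of the table: 16723 of 18536 passed the filter on low values and were tested. Both groups are nerve dissected out of the cochlea of mice with no treatment named in the labels, and the nerves of both cochleae of an animal were pooled. P21 animals were 3 weeks old. The age of the adults, and the sex and strain of all animals, are not stated. The titles of the adult samples begin with CTRL and those of the younger ones do not, and any difference in handling behind that prefix cannot be told apart from age. The other 9 libraries, 3 each at P3, P7 and P14, entered the fit to estimate the spread, and P14 against P3 served as an earlier comparison with no library in common with this one.

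The auditory nerve carries the axons of spiral ganglion neurons, which link hair cells to the brainstem and fire at high rates. Schwann cells wrap the peripheral part and oligodendrocytes the central part, and nodes of Ranvier between the wraps hold sodium channels, with potassium channels beside the nodes. Mice hear from the second postnatal week, so both ages compared here are hearing ages. The ganglion lies in a canal of bone with marrow spaces, next to the fibrocytes and epithelium of the cochlea, and a dissection can carry RNA from all of these.

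The labelled tissue was checked against its markers. Pmp22, a protein of compact peripheral myelin, stood between 58879 and 159571 normalized counts in the 6 libraries, and Nefh, the heavy neurofilament chain of thick axons, between 64727 and 111819. A normalized count is a read count divided by the size factor of its library. Coch, the cochlin of inner ear fibrocytes, stood between 275682 and 849847, so RNA of fibrocytes was present in every library beside that of the nerve. Depth was 35250155 to 42258738 reads, and 3 reads, taken as the floor of detection, correspond to a normalized count of 2.81 to 3.65. The first principal component of the 6 libraries held 55.8% of the variance and separated the ages. The P21 libraries also differed among themselves. P21 replicate 3 had a Pearson r of 0.9707 with P21 replicate 2 (log2 values). With adult replicates 2 and 3 its r was higher, at 0.9742 and 0.9737.

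Some libraries stood apart, and results are given with and without them. Most of all, P21 replicate 2 was low in long transcripts: its log2 difference from the other P21 libraries had a Spearman rho of -0.64 with exonic length over 12790 genes, against 0.54 and 0.51 for replicates 1 and 3. Replicate 2 is part of the mean that replicates 1 and 3 are each set against, so these values are not independent of one another. The genes share their libraries, so these are descriptions with no p. The change with age ran along length too. In the tenth of genes with the shortest exonic sequence (174 to 1300 bases) the median log2 fold change, adult minus P21, was -0.50, and in the tenth with the longest (from 7058 bases) it was 0.54. Without P21 replicate 2 these medians were -0.35 and 0.37, so the slope was smaller and still present. A fit in which each library's trend with exonic length was removed is therefore set beside the results. That fit also removes any change with age that runs along length, whatever its source. Whether the trend is technical or biological was not tested.

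Adult replicate 1 also stood apart, with 27 genes over 4-fold above the other adults. Rn45s, the ribosomal RNA precursor, was chosen after its values were seen: it stood at 168729 in adult replicate 3 and between 26018 and 39275 in the other 5 libraries. Xist, the transcript of the inactive X chromosome, was high in P21 replicates 1 and 2 and in adult replicate 3 (24201 to 44422) and between 303 and 1107 in the other libraries of these ages. Eif2s3y, a Y-linked translation factor, ran the opposite way (0, 0 and 2454 at P21; 1689, 1707 and 26.7 in adults). The pattern is that of females in 2 P21 libraries and 1 adult library, so sex goes partly with age, and leaving out these 3 libraries leaves 1 at P21. P14 replicate 1 was also high in Xist (33477, with Eif2s3y at 0). Wherever these 3 libraries are left out below, P14 replicate 1 is left out of the fit too. The P3 libraries were low in Xist (4.71 to 18.5), so sex goes partly with age in P14 against P3 as well.

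**Figure D1:**
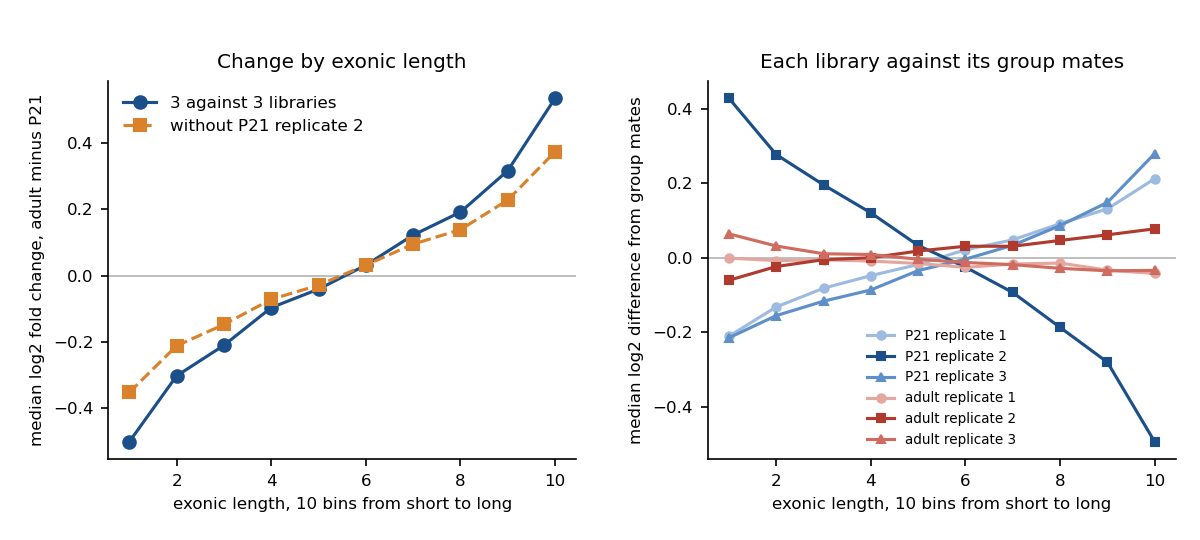
Exonic length and the late change. Left, median log2 fold change (adult minus P21) of genes in 10 bins of exonic length, rising from -0.50 to 0.54 over 3 against 3 libraries and from -0.35 to 0.37 without P21 replicate 2. Right, the median log2 difference of each library from the other libraries of its age: P21 replicate 2 falls with length while P21 replicates 1 and 3, each set against a mean that includes replicate 2, rise.

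Between P21 and adulthood 8266 of 16723 genes (49.4%) passed the test, limma with a two-sided Benjamini-Hochberg adjusted p under 0.05. Of these, 4243 rose (25.4% of genes tested) and 4023 fell (24.1%). Here and below a gene rose or fell only where it passed. The libraries of both ages did not overlap in 56.1% of genes. Changes of at least 2-fold were fewer: 789 genes rose and 936 fell by that much, on the log2(value + 1) scale used throughout. Without P21 replicate 2, 21.8% of genes rose and 19.7% fell, and with the length trend removed 20.4% and 21.5%. With only these 2 ages in the fit, so that the other 9 libraries did not enter the spread, 2884 genes rose and 2327 fell. In all 20 alternatives that test every gene, 1305 genes rose and 1135 fell. Any gene named below as having changed kept its call in each alternative that tested it, unless the text says that a call was lost. Where a number of alternatives out of 21 is given, only some of the settings that ended the call are named.

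Gene lists are described by their counts and medians, with no test of the list, beside a median log2 fold change of 4.44e-04 over all genes tested. The lowest medians were those of red cells, B cells, neutrophils, bone, the tectorial membrane and dividing cells. The highest were those of potassium channels, nodes, receptors and synaptic vesicles. Without the 3 libraries high in Xist, which leaves 1 library at P21, 2088 genes rose and 1899 fell in all, and the number that fell was 10 for bone, 11 for the cell cycle, 4 for peripheral myelin, 8 for cholesterol, 0 for neutrophils, 1 for fibrocytes, 1 for macrophages, 2 for complement and 5 for immediate early genes. The number that rose was then 11 for nodes, 8 for potassium channels, 8 for synaptic vesicles, 5 for spiral ganglion neurons, 2 for receptors and 4 for axon growth, all lower than with every library, as are the numbers of all calls.

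**Figure D2:**
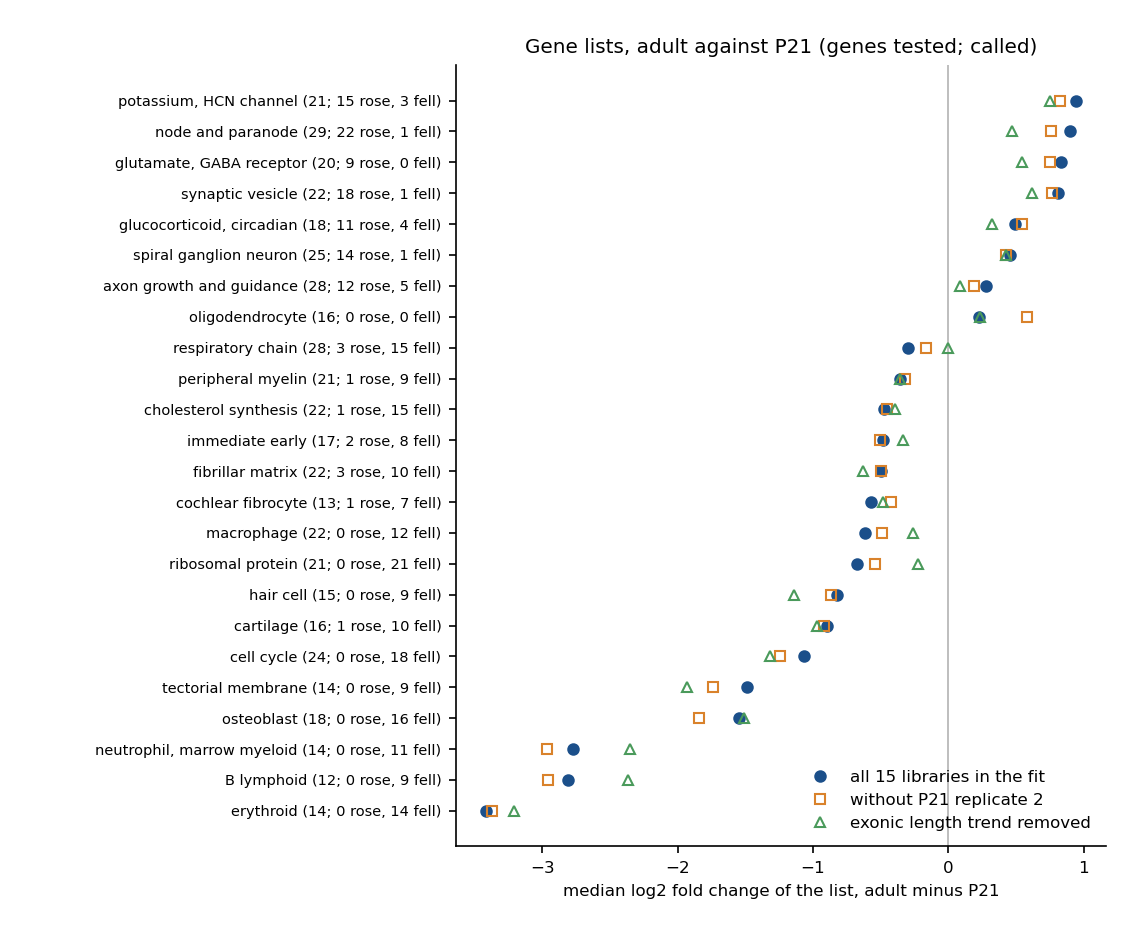
Median log2 fold change (adult minus P21) of 24 gene lists, with the number of genes tested and the numbers that rose and fell. Circles are the fit of all 15 libraries, squares the fit without P21 replicate 2 and triangles the fit with the trend along exonic length removed. The erythroid list lies lowest at -3.42 and the potassium and HCN channel list highest at 0.95; the respiratory chain list moves from -0.30 to -0.0028 with the trend removed.

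Genes of bone fell. Osteoblasts lay down bone matrix and become osteocytes, and of 18 genes of these cells 16 fell and 0 rose (17 and 0 without P21 replicate 2, 15 and 0 with the length trend removed), with a median of -1.54. Bglap, the osteocalcin that mature osteoblasts secrete (chromosome 3, 88383495 to 88384466, mm10), was counted at 7394, 2713 and 1382 at P21 and 208, 56.9 and 106 in adults. Every adult library lay below every P21 library, and P21 replicate 1 was the highest. Bglap fell by 4.80 ± 0.61 (adjusted p = 1.41e-04), and its near-identical neighbour Bglap2, with which it may share reads, by 4.89 ± 0.65 (adjusted p = 1.79e-04). The start region of Bglap is printed because most members of its list fell with it. It is the 300 bases of RefSeq's GRCm38.p6 promoter table at chr3:88384417-88384716, minus strand, from 250 bases before the start site to 50 after it. Capitals mark the one match to TGTGGT, the core letters bound by RUNX factors of the bone lineage, which lies 132 bases before the start site and reads as ACCACA on the strand shown.
Bglap: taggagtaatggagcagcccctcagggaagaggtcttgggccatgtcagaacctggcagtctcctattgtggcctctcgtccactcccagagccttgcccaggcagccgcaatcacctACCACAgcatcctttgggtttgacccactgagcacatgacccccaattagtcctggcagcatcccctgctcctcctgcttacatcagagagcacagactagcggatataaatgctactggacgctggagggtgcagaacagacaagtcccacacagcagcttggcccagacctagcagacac
On either strand TGTGGT was present in 6 of the 11 list members with such a window (Bglap, Runx2, Spp1, Dmp1, Mepe and Sparc), against 12.8% of 12864 genes tested that have one. This is a description of letters, not of binding.

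Sparc, a calcium-binding glycoprotein of bone and other matrix (chromosome 11, 55394159 to 55420080, mm10), stood at 163835, 171867 and 139267 at P21 and 28988, 27021 and 25570.5 in adults. Adult libraries differed little from one another and lay far below the P21 range, and it fell by 2.54 ± 0.13 (adjusted p = 6.62e-07). Ibsp, the bone sialoprotein, stood at 11036, 3191 and 3951 at P21 and 953, 700.0 and 642 in adults, and fell by 2.78 ± 0.38 (adjusted p = 2.06e-04). Panx3, a pannexin channel of osteoblasts and cartilage, fell by 4.15 ± 0.36, and Ifitm5, an osteoblast membrane protein, by 2.89 ± 0.31 (adjusted p = 2.74e-05 and 6.73e-05). Phex, the endopeptidase of osteocytes, was chosen after its values were seen and fell from 4839 ± 2351 to 1206 ± 79.4 (SD, n = 3; limma adjusted p = 4.84e-04). The summed level of the list lay between 333516 and 407663 at P21 and between 154093 and 158707 in adults. In bulk RNA, fewer cells of a type and less RNA per cell cannot be told apart, for this list and for every other one below.

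Matrix genes of cartilage and connective tissue fell too. Of 16 cartilage genes 10 fell and 1 rose (9 and 1 without P21 replicate 2, 9 and 1 with the trend removed). Col2a1, the main collagen of cartilage (chromosome 15, 97975602 to 98004724, mm10), stood at 39255, 21639 and 34969 at P21 and 4969, 4465 and 4874 in adults. The adult libraries lay close together and far below the lowest P21 library, and it fell by 2.70 ± 0.19 (adjusted p = 8.30e-06). Col9a1, which decorates the fibrils of type II collagen, fell by 2.33 ± 0.13 (adjusted p = 6.62e-07), and Chad, a leucine-rich matrix protein, by 1.61 ± 0.21 (adjusted p = 1.57e-04). The member that rose was Comp, a thrombospondin-family protein of cartilage and tendon, at low levels: 10.3, 19.5 and 5.87 at P21 and 74.9, 37.2 and 29.2 in adults (log2 1.93 ± 0.50, adjusted p = 0.00738). In the list of fibrillar matrix, 10 of 22 fell and 3 rose. Lox, the enzyme that cross-links collagen, stood at 9504, 13339 and 10881 at P21 and 2052, 2897 and 2858 in adults, and it fell by 2.11 ± 0.16 (adjusted p = 1.51e-05). The other named falls were Col3a1 (-1.68 ± 0.20), Lum, a small proteoglycan of collagen fibrils (-1.39 ± 0.11), and the chains of type I collagen, Col1a1 (-2.31 ± 0.42) and Col1a2 (-1.39 ± 0.19), with adjusted p-values of 1.12e-04, 1.80e-05, 9.37e-04 and 2.09e-04. Col12a1, Fn1 and Fbln1 were called higher, and with the length trend removed their adjusted p-values were 0.212, 0.229 and 0.133, so that 0 genes of the list rose and 12 fell. Col12a1 lost its call in 6 of 21 alternatives, among them the fits without P21 replicate 2 (0.0720) and without adult replicate 1 (0.0603), with the adjusted p in brackets; with the length trend removed it was 0.212. Fn1 lost its call in 10 of 21 alternatives, among them the fits without P21 replicate 2 (0.110), without adult replicate 1 (0.0597) and without adult replicate 3 (0.0956), with the adjusted p in brackets; with the length trend removed it was 0.229. Fbln1 lost its call in 10 of 21 alternatives, among them the fits without P21 replicate 3 (0.101), without adult replicate 1 (0.115) and without adult replicate 3 (0.0704), with the adjusted p in brackets; with the length trend removed it was 0.133.

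Transcripts of red cells fell in every member of their list. All 14 erythroid genes fell, also without P21 replicate 2 (14) and with the length trend removed (14), with a median of -3.42. Alas2, the enzyme that starts heme synthesis in red cell precursors (chromosome X, 150547417 to 150570622, mm10), stood at 1743, 1489.7 and 873 at P21 and 165, 193 and 118 in adults. Its P21 and adult ranges were far apart, and it fell by 3.07 ± 0.34 (adjusted p = 7.34e-05). Slc4a1, the anion exchanger of the red cell membrane, went further, from 4249, 2054 and 1169 to 151, 107 and 46.2 (log2 -4.56 ± 0.82, adjusted p = 9.01e-04). The globins Hbb-bs and Hba-a2, which share reads with near-identical copies, fell by 3.42 ± 0.38 and 3.22 ± 0.39 (adjusted p = 7.11e-05 and 1.17e-04). Hbb-bs stood at 8941, 9828 and 4324 at P21 and 537, 955 and 599 in adults, so globin transcripts were still well above the floor in adults. Without the 3 libraries high in Xist, 9 of the erythroid genes fell.

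The start region of Alas2 (RefSeq, GRCm38.p6, chrX:150547167-150547466, plus strand) is shown with its one match to AGATAA, the letters bound by GATA factors of red cell precursors, in capitals. The match begins 86 bases before the start site and reads TTATCT on this strand.
Alas2: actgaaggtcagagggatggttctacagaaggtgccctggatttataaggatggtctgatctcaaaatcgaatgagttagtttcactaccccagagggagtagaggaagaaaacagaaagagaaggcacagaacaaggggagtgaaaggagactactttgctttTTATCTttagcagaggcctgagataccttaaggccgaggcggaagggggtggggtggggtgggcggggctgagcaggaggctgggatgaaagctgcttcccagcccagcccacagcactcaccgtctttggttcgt
AGATAA was found on either strand in 3 of 11 erythroid members with a window (Hbb-bs, Alas2 and Epb42) and in 6.76% of genes tested with one.

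White cell genes of marrow were lower as well, with more spread. Of 12 B lymphoid genes 9 fell and 0 rose, the same counts as without P21 replicate 2 and with the trend removed. Cd79b, of the B cell receptor, stood at 269, 101 and 54.8 at P21 and 11.4, 20.8 and 8.51 in adults, and it fell by 3.07 ± 0.62 (adjusted p = 0.00177). Without the libraries high in Xist, the adjusted p of Cd79b was 0.0993, and 1 gene of the list was called. The summed level of the list, which genes of wider expression dominate, was 4841 to 6358 at P21 and 4633 to 5363 in adults, and these ranges overlap. Among 14 neutrophil genes 11 fell (7 with the trend removed). Their summed level was 19216, 5420.0 and 3102 at P21 and 3468, 773 and 357 in adults. Replicate 1 was the highest library of both ages and adult replicate 1 lay above P21 replicate 3, so the ages overlapped in this sum. S100a8, a calcium-binding protein of neutrophil granules, showed the same order (3178, 1065 and 499 at P21 and 561, 118 and 42.5 in adults; log2 -3.06 ± 0.88, adjusted p = 0.0118). S100a8 lost its call in 5 of 21 alternatives, among them the fits without P21 replicate 1 (0.05004) and without adult replicate 3 (0.0556), with the adjusted p in brackets. The number of neutrophil genes that fell was 2 without P21 replicate 1, 6 without adult replicate 2, 2 without adult replicate 3, and 2 with only these 2 ages in the fit.

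Genes of dividing cells fell. Of 24 cell cycle genes 18 fell and 0 rose (20 and 18 fell without P21 replicate 2 and with the trend removed), with a median of -1.07. Plk1, the kinase that drives mitosis (chromosome 7, 122159435 to 122169884, mm10), stood at 176, 129 and 85.1 at P21 and 32.3, 38.3 and 34.0 in adults, with no overlap, and fell by 1.81 ± 0.26 (adjusted p = 2.88e-04). Mki67, the Ki-67 antigen of cycling cells, stood at 2658, 717 and 736 at P21 and 185, 118 and 85.1 in adults. P21 replicate 1 held more than 3 times the level of the other P21 libraries, and it fell by 3.17 ± 0.52 (adjusted p = 5.14e-04). Top2a, the topoisomerase of dividing cells, had the same high library (1225, 234 and 231 at P21 and 103, 76.6 and 23.1 in adults; log2 -2.81 ± 0.63, adjusted p = 0.00328). Rrm2, of ribonucleotide reductase, fell by 2.80 ± 0.46, and Pcna, the sliding clamp of DNA replication, by 0.80 ± 0.12 (adjusted p = 5.69e-04 and 3.87e-04). P21 replicate 1 was also the highest P21 library in the erythroid gene Slc4a1, the neutrophil sum and Bglap. The summed level of the erythroid list was instead highest in P21 replicate 2 (71222, 78706 and 49210 at P21). Which cells divided was not measured.

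Plk1's start region (RefSeq, GRCm38.p6, chr7:122159185-122159484, plus strand) holds one match to TTTGAA, the cell cycle homology region through which many mitotic genes are held off in resting cells. It is in capitals and begins 30 bases after the start site.
Plk1: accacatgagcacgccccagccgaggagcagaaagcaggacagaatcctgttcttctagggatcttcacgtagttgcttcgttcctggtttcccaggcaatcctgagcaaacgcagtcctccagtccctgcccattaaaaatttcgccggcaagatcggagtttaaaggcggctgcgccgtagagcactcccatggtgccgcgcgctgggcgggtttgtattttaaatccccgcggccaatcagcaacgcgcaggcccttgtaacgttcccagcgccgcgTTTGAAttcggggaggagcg
TTTGAA was present on either strand in 8 of 20 cell cycle members with a window and in 12.2% of genes tested, and CCAAT, the box bound by NF-Y, in 17 of the members and 38.1% of genes.

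Genes of ribosomal proteins fell by small amounts. All 21 genes of cytosolic ribosomal proteins fell, with a median of -0.68. They are short (median exonic length 1154 bases), and with the length trend removed 12 fell and the median was -0.23. Rplp0, a protein of the ribosomal stalk, stood at 3721, 4098 and 3501 at P21 and 2104, 2081 and 2212 in adults and fell by 0.82 ± 0.082 (adjusted p = 5.43e-05). Many ribosomal protein genes have pseudogenes that can take their reads. Of 18 genes of heat shock and the unfolded protein response, 7 fell, 2 rose and 9 were not called. Without P21 replicate 2 the counts were 6 and 4, and with the length trend removed as well 5 and 6, so the list has no common direction. Among its chaperones of the endoplasmic reticulum, Hspa5 fell by 0.53 ± 0.078, Hsp90b1 by 0.57 ± 0.069 and the disulfide isomerases Pdia4 and Pdia6 by 0.58 ± 0.063 and 0.71 ± 0.089, with adjusted p-values of 3.01e-04, 1.12e-04, 7.11e-05 and 1.40e-04. In contrast Hsp90ab1, the cytosolic HSP90, rose from 49026 ± 4350.2 to 67466 ± 3646 (SD, n = 3; log2 0.46 ± 0.077, limma adjusted p = 5.65e-04).

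Peripheral myelin genes, which climb steeply in the first postnatal weeks, were partly lower in adults. Of 21 genes 9 fell, 1 rose and 11 were not called (9 fell without P21 replicate 2, 8 with the trend removed). Pmp22, whose dosage causes hereditary neuropathy (chromosome 11, 63128982 to 63159547, mm10), stood at 128064, 123740 and 159571 at P21 and 58879, 60549 and 59083 in adults. Adult libraries were close to one another and all lay under the lowest P21 value, and it fell by 1.20 ± 0.15 (adjusted p = 1.34e-04). Cd9, a tetraspanin of myelin and other membranes, fell by 1.10 ± 0.11 (adjusted p = 5.43e-05), and Mal, a proteolipid of membrane rafts, by 0.80 ± 0.14 (adjusted p = 7.96e-04). Pmp2, the fatty acid binding protein of peripheral myelin, stood at 132, 184 and 117 at P21 and 38.5, 18.6 and 20.7 in adults (log2 -2.48 ± 0.42, adjusted p = 6.40e-04; 0.0644 without the libraries high in Xist). Mbp, the basic protein that compacts both kinds of myelin, stood at 168368, 328473 and 167207 at P21 and 192038, 153315 and 150585 in adults, with P21 replicate 2 far above the rest, and did not pass (log2 -0.35 ± 0.31, adjusted p = 0.363). Erbb3, the neuregulin receptor of Schwann cells, was the one member called higher (2181, 622 and 2913 at P21 and 3014, 3674 and 3625 in adults; log2 1.11 ± 0.42, adjusted p = 0.0406), and without P21 replicate 2 the log2 fold change was 0.44 (adjusted p = 0.125). Erbb3 lost its call in 13 of 21 alternatives, among them the fits without P21 replicate 2 (0.125), without adult replicate 1 (0.0620), without adult replicate 2 (0.0974) and without adult replicate 3 (0.0922), with the adjusted p in brackets; with the length trend removed it was 0.0902.

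No oligodendrocyte gene passed. Limma called 0 of 16 (1 rose with only these 2 ages in the fit), and in 1 of them the ages did not overlap. Mog, on the surface of central myelin, stood at 1222, 4026 and 608 at P21 and 1589, 1084 and 995 in adults (adjusted p = 0.835), and Mobp at 2509, 5248 and 2189.6 at P21 and 4858, 3322 and 3189 in adults (adjusted p = 0.808). At an unadjusted p under 0.05, 0 of the list's genes were called by limma, and edgeR and DESeq2 called 0 and 0 at an adjusted p under 0.05. P21 replicate 2 was the highest library for both genes, and the adults lay within the P21 range, which that library widened. For Mobp all adults lay above P21 replicates 1 and 3. For Mog they lay above replicate 3 and on both sides of replicate 1. The list median was 0.23, and 0.58 without P21 replicate 2, where 0 genes were called as well.

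Most enzymes of cholesterol synthesis fell. Of 22 genes of cholesterol synthesis 15 fell and 1 rose (14 fell and 0 rose without P21 replicate 2, 13 and 0 with the trend removed). Msmo1, the sterol methyl oxidase of the pathway (chromosome 8, 64718145 to 64733578, mm10), stood at 5185, 7439 and 5723 at P21 and 3107, 2884 and 2970.1 in adults. Its adult libraries were close to one another and P21 replicate 2 was the highest, and it fell by 1.02 ± 0.11 (adjusted p = 6.30e-05). Fdps, the farnesyl diphosphate synthase, fell by 1.07 ± 0.15, Fdft1, the squalene synthase, by 0.69 ± 0.10, and Nsdhl, a sterol dehydrogenase, by 0.76 ± 0.11 (adjusted p = 2.29e-04, 2.78e-04 and 2.69e-04). The member called higher was Srebf2, the transcription factor that drives these enzymes (6467, 4461 and 6531 at P21 and 7879, 7401 and 7751 in adults; log2 0.42 ± 0.15, adjusted p = 0.0290), and with the trend removed the log2 fold change was 0.20. Srebf2 lost its call in 11 of 21 alternatives, among them the fits without P21 replicate 2 (0.124), without adult replicate 1 (0.0744), without adult replicate 2 (0.0521) and without adult replicate 3 (0.0670), with the adjusted p in brackets; with the length trend removed it was 0.158. Among 19 genes of myelin sphingolipids and fatty acids 8 fell and 4 rose. Cers2 and Elovl1, which make the very long chains of myelin lipids, fell by 0.58 ± 0.089 and 0.75 ± 0.13 (adjusted p = 3.61e-04 and 6.70e-04).

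The start region of Msmo1 (RefSeq, GRCm38.p6, chr8:64733529-64733828, minus strand) is printed with its 3 CCAAT boxes in capitals, which begin 160, 96 and 55 bases before the start site.
Msmo1: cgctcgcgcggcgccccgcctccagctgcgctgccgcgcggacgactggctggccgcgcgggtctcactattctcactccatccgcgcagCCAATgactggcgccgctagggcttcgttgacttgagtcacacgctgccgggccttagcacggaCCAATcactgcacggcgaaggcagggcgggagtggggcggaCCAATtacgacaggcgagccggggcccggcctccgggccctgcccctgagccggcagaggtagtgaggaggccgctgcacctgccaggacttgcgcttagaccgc
CCAAT, on either strand, occurred in 15 of 16 cholesterol genes with a window, against 38.1% of genes tested.

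Genes of the axon membrane rose. Of 29 genes of the node of Ranvier and its flanks 22 rose and 1 fell, with a median of 0.90, and in all 29 the libraries of both ages did not overlap, against 56.1% of genes tested. These genes are long (median exonic length 7195 bases). In the tenth of all genes with the longest exonic sequence (from 7058 bases), 63.2% rose and the median was 0.54. Without P21 replicate 2, 21 rose, with the length trend removed 18 rose with a median of 0.47, and with both 13. Scn8a, the sodium channel of mature nodes (chromosome 15, 100870645 to 101045938, mm10), stood at 8176, 5858 and 9134 at P21 and 19930.1, 21745 and 20847 in adults. The adult libraries lay more than 2-fold above the highest P21 library, and the rise was 1.46 ± 0.19 (adjusted p = 1.59e-04), or 0.79 with the trend removed. Epb41l3, the protein 4.1B that anchors paranodal complexes, rose by 0.61 ± 0.075 and Dlg4, the scaffold PSD-95, which also clusters potassium channels beside the node, by 0.90 ± 0.11 (adjusted p = 1.24e-04 and 1.42e-04); for Dlg4 the trend-removed value was 0.25.

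Other proteins of the node were chosen after their values were seen. Ank3, the ankyrin G that holds sodium channels, went from 3664 ± 881 to 7376 ± 593 (SD, n = 3; log2 1.04 ± 0.15, 0.37 with the trend removed; limma adjusted p = 3.02e-04). Cntnap1, the Caspr of the paranodal junction, rose by 1.20 ± 0.24, and Cntn2, the contactin of the juxtaparanode, by 1.51 ± 0.23 (adjusted p = 0.00164 and 3.61e-04). The member that fell was Hapln1, a hyaluronan link protein that is also made by cartilage: 3349.7, 3296 and 4201 at P21 and 1929, 2078 and 1864 in adults, log2 -0.88 ± 0.10, adjusted p = 1.04e-04. It also belongs to the cartilage list, which fell.

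Potassium channels that set the speed of firing moved the same way. Of 21 potassium and HCN channel genes 15 rose and 3 fell (13 and 1 without P21 replicate 2, 12 and 2 with the trend removed, 9 rose with both). Kcnt1, a sodium-activated potassium channel (chromosome 2, 25863795 to 25918273, mm10), stood at 2741, 2071 and 3255 at P21 and 8123, 7630.1 and 7935 in adults, the adults all more than 2-fold above the P21 libraries, and rose by 1.58 ± 0.17 (adjusted p = 7.01e-05). Hcn2, of the current that depolarises after inhibition, stood at 3907, 3738 and 3869 at P21 and 8333, 8525 and 7945 in adults (log2 1.11 ± 0.18, adjusted p = 5.29e-04). Its exonic sequence is 3195 bases long, and with the trend removed its log2 fold change was 1.10. The Kv1 beta subunits Kcnab2 and Kcnab3 rose by 0.76 ± 0.12 and 0.87 ± 0.10 (adjusted p = 4.95e-04 and 1.12e-04). Kcna1, the Kv1 channel of the juxtaparanode, did not pass (38576, 28378 and 46618 at P21 and 49569.9, 52440.3 and 49639 in adults; adjusted p = 0.116). Kcna4, a Kv1 channel of fast inactivation, fell (104, 146 and 145 at P21 and 78.0, 45.9 and 72.9 in adults; log2 -1.01 ± 0.21, adjusted p = 0.00223), and Kcna5 and Kcnk1 were called lower. Kcna5 lost its call in 7 of 21 alternatives, among them the fits without P21 replicate 2 (0.0673), without P21 replicate 3 (0.0521) and without adult replicate 3 (0.0663), with the adjusted p in brackets. Kcnk1 lost its call in 9 of 21 alternatives, among them the fits without P21 replicate 2 (0.0882), without P21 replicate 3 (0.0539) and without adult replicate 1 (0.119), with the adjusted p in brackets; with the length trend removed it was 0.178.

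Genes of transmitter release rose. Of 22 genes 18 rose and 1 fell (16 and 1 without P21 replicate 2, 17 and 1 with the trend removed). Syt2, the fast calcium sensor of auditory synapses (chromosome 1, 134646612 to 134753149, mm10), stood at 10229, 5945 and 10798 at P21 and 23867, 28000.2 and 25917 in adults, and it rose by 1.57 ± 0.24 (adjusted p = 3.52e-04). Every adult library lay above every P21 library. Bsn, the active zone protein bassoon, went from 992, 624 and 1253 to 4897, 3717 and 3493 (log2 2.12 ± 0.27, adjusted p = 1.59e-04). Bassoon's exonic sequence is 15938 bases long, and with the trend removed its log2 fold change was 1.33. Pclo, its relative piccolo, rose by 1.58 ± 0.23, or 0.63 with the trend removed. The member that fell was Stx1a, a syntaxin of vesicle fusion (313, 363 and 325 at P21 and 266, 219 and 214 in adults; log2 -0.52 ± 0.11, adjusted p = 0.00276; 0.0923 without the libraries high in Xist).

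Markers of spiral ganglion neurons rose in part. Of 25 genes 14 rose and 1 fell, with a median of 0.46 (12 rose without P21 replicate 2, 9 without adult replicate 1 and 9 with the trend removed). Slc17a7, the vesicular glutamate transporter VGLUT1, stood at 16746, 16413 and 17996 at P21 and 23635, 29535 and 26888 in adults (log2 0.64 ± 0.13, adjusted p = 0.00167), or 0.67 with the trend removed, and its adjusted p was 0.0949 without the libraries high in Xist. Rbfox3, the NeuN of mature neurons, rose by 0.98 ± 0.14 (adjusted p = 2.89e-04). Ntrk2, the receptor of BDNF, rose by 1.14 ± 0.19, but is a long transcript (15836 bases), and with the trend removed the value was 0.35 (adjusted p = 0.0864). Nefl, the light neurofilament chain, stood at 42726, 31213 and 52522 at P21 and 60898, 53521 and 55667 in adults and did not pass (adjusted p = 0.0762), and Nefh passed narrowly (80404, 64727 and 100658 at P21 and 105126, 111819 and 108969 in adults; log2 0.43 ± 0.17, adjusted p = 0.0481). Nefh lost its call in 14 of 21 alternatives, among them the fits without P21 replicate 1 (0.0885), without P21 replicate 2 (0.199), without adult replicate 1 (0.0797), without adult replicate 2 (0.111) and without adult replicate 3 (0.0959), with the adjusted p in brackets; with the length trend removed it was 0.111. Pvalb, the calcium buffer parvalbumin, was called lower at the threshold (22001, 31779.6 and 26876 at P21 and 22239, 19604 and 21457 in adults; log2 -0.34 ± 0.13, adjusted p = 0.0497) with overlapping libraries, and with the trend removed the sign turned (0.12). Pvalb lost its call in 14 of 21 alternatives, among them the fits without P21 replicate 2 (0.203), without P21 replicate 3 (0.0911), without adult replicate 1 (0.0656), without adult replicate 2 (0.149) and without adult replicate 3 (0.0856), with the adjusted p in brackets; with the length trend removed it was 0.312. Calb1, another calcium buffer and a marker of one type I subclass, varied widely within ages (504, 3186 and 652 at P21 and 5143, 1438 and 1749 in adults; adjusted p = 0.155).

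Receptors of glutamate and GABA rose in part. Of 20 receptor genes 9 rose and 0 fell (6 rose with the trend removed, 5 without P21 replicate 2 as well). Grik5, a kainate receptor subunit, rose by 0.62 ± 0.10 and Gria2, the AMPA subunit that limits calcium entry, by 1.18 ± 0.19 (adjusted p = 6.51e-04 and 5.53e-04). Of 28 genes of axon growth and guidance 12 rose and 5 fell, and 6 and 6 with the trend removed, so the list has no common direction. L1cam, an adhesion molecule of axons, stood at 2395, 1487 and 2294 at P21 and 5761, 5018 and 5020.3 in adults (log2 1.38 ± 0.17, adjusted p = 1.34e-04), or 1.14 with the trend removed. Marcksl1, an actin regulator of growing neurites, fell by 0.99 ± 0.18 (adjusted p = 0.00107). Gap43, the growth cone protein, did not pass (144 ± 30.3 at P21 and 136 ± 100.5 in adults, SD, n = 3; limma adjusted p = 0.578). In the list of immature and nonmyelinating Schwann cells 5 of 11 rose and 0 fell, among them Ncam1 (0.96 ± 0.15) and the neurotrophin receptor Ngfr (1.09 ± 0.21, adjusted p = 4.41e-04 and 0.00128), which neurons also express.

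**Figure D3:**
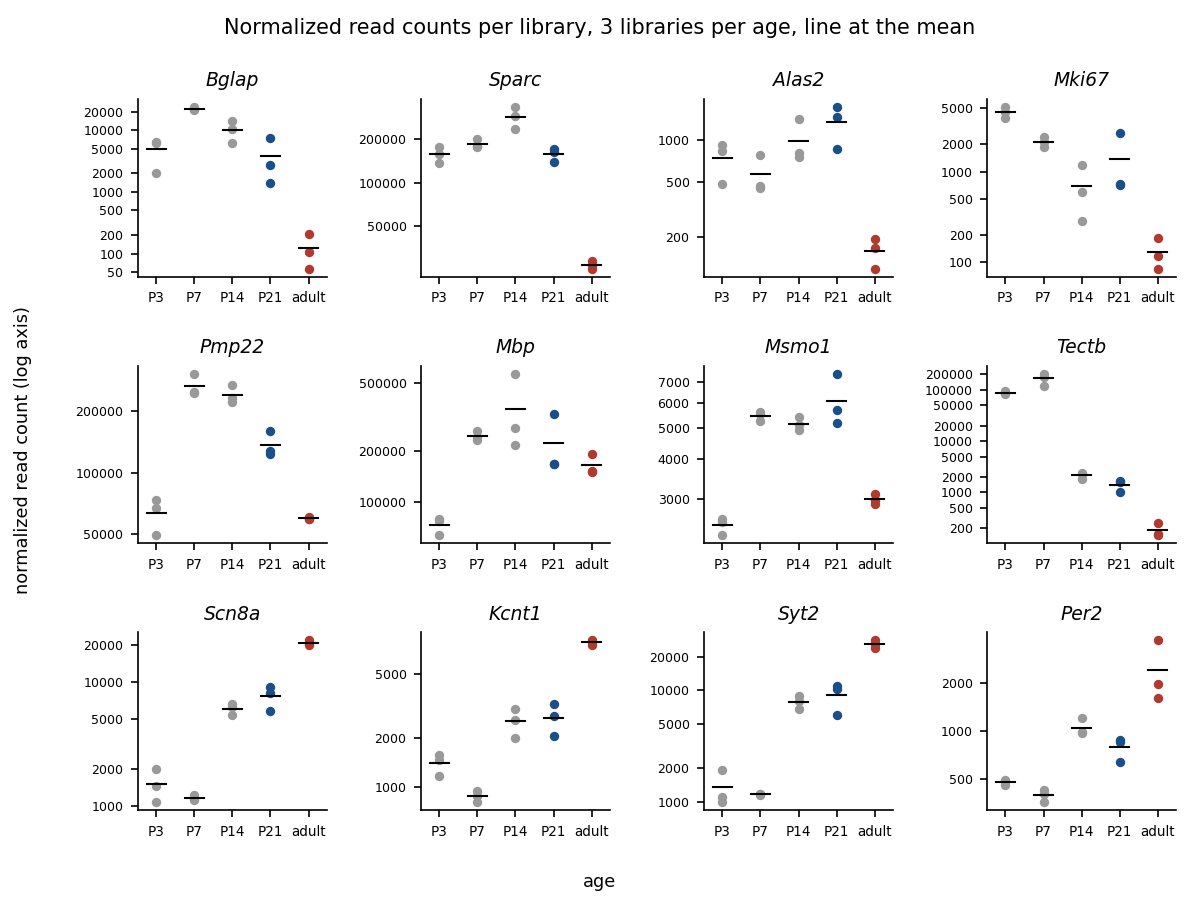
Normalized read counts (log axes, which differ between panels) of 12 genes in every library of the 5 ages, 3 libraries per age, with P21 in blue, adult in red and a line at each mean. Bglap, Sparc, Alas2, Mki67, Msmo1 and Tectb lie lower in all 3 adult libraries than at P21, as does Pmp22; Scn8a, Kcnt1, Syt2 and Per2 lie higher, and the ages overlap for Mbp.

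Genes of the cochlear epithelium fell. Of 14 genes of the tectorial membrane and the epithelium that makes it, 9 fell and 0 rose (9 fell without P21 replicate 2, 10 with the trend removed). Tectb, a tectorin of that membrane (chromosome 19, 55180885 to 55196313, mm10), stood at 1649.6, 1580.1 and 1037 at P21 and 151, 145 and 252 in adults, and it fell by 2.97 ± 0.24 (adjusted p = 1.87e-05). Otol1, the otolin of otoconia, fell by 3.28 ± 0.53 (adjusted p = 4.95e-04). Ceacam16, a tectorial glycoprotein chosen after its values were seen, fell from 52349 ± 6532 to 19807 ± 6257 (SD, n = 3; log2 -1.45 ± 0.29, limma adjusted p = 0.00157). Among 15 hair cell genes 9 fell and 0 rose (5 fell without P21 replicate 2 and adult replicate 1, 5 without adult replicate 2, 4 with only these 2 ages in the fit). With the trend removed 13 fell, and without adult replicate 3 12 fell. The libraries of both ages did not overlap in 6 of the 15, against 56.1% of genes tested. Ocm, the oncomodulin of outer hair cells, stood at 1148, 5469 and 2995 at P21 and 211, 177 and 876 in adults, with adult replicate 3 the highest adult, and fell by 3.05 ± 0.58 (adjusted p = 0.00128). Gfi1, a hair cell transcription factor, fell by 1.81 ± 0.40, and Slc26a5, the motor protein prestin, by 1.71 ± 0.45 (adjusted p = 0.00281 and 0.00752). The summed level of the hair cell list was 16955, 20031 and 23693 in adults against 24729.6 to 27768 at P21, with adult replicate 3 again the highest adult.

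Fibrocyte genes of the lateral wall and spiral limbus fell in part. Of 13 genes 7 fell and 1 rose (5 fell without P21 replicate 2, 4 without adult replicate 1 as well). Otos, the otospiralin that fibrocytes secrete, stood at 159620, 188007 and 139120 at P21 and 49221, 89745 and 70611 in adults and fell by 1.25 ± 0.24 (adjusted p = 0.00134). Coch stood at 699393, 849847 and 567701 at P21 and 275682, 430273 and 337576 in adults (log2 -1.02 ± 0.25, adjusted p = 0.00548), and Car3, a carbonic anhydrase of fibrocytes, fell by 1.37 ± 0.31 (adjusted p = 0.00343). Otos lost its call with the trend removed and P21 replicate 2 left out (adjusted p = 0.0543) and without the libraries high in Xist (adjusted p = 0.0722). No call of Coch was made without P21 replicate 2 and adult replicate 1 (adjusted p = 0.0743), after quantile normalization (adjusted p = 0.266) and without the libraries high in Xist (adjusted p = 0.224). The call of Car3 ended without the libraries high in Xist (adjusted p = 0.152). Slc4a11, a borate and water transporter of fibrocytes, was the member called higher (3973, 3912 and 3392 at P21 and 5719, 9596 and 5901 in adults; log2 0.87 ± 0.27, adjusted p = 0.0163). Slc4a11 lost its call without adult replicate 2 (adjusted p = 0.0806) and without the libraries high in Xist (adjusted p = 0.0980). Stria vascularis and melanocyte genes gave 3 that fell and 2 that rose of 13, but 0 fell without P21 replicate 1, 1 without P21 replicate 2, 0 without adult replicate 1 and 1 without adult replicate 3.

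Fewer genes of the macrophage list were called with the length trend removed. Of 22 genes 12 fell, 0 rose and 10 were not called, with a median of -0.61. Their median exonic length is 1942 bases, and with the length trend removed 4 fell, a share of 18.2% against 21.5% of all genes in that fit. C1qa, a chain of complement C1q made by macrophages, stood at 1290.3, 1312 and 1024 at P21 and 889.7, 686 and 789 in adults (log2 -0.62 ± 0.17, adjusted p = 0.00976), and with the trend removed its adjusted p was 0.530 and without the libraries high in Xist 0.329. Mrc1, the mannose receptor of perivascular macrophages, has 5374 exonic bases and fell (log2 -0.79 ± 0.18, adjusted p = 0.00393), and with the trend removed the value was -1.04. Of 17 complement genes 9 fell and 1 rose (6 fell with the trend removed, 4 without P21 replicate 2 as well). The one that rose was C4b, at 476, 565 and 616 at P21 and 1531, 1568 and 1310.1 in adults (log2 1.41 ± 0.24, adjusted p = 6.79e-04), and it has a near-identical paralog. Among interferon response genes 4 of 23 rose and 0 fell (1 rose without P21 replicate 3, 2 without adult replicate 1 and 1 without adult replicate 3), and in the class I list limma called 0 of 13 higher and 0 lower (2 at an unadjusted p under 0.05; edgeR 0, DESeq2 2). Cd74, the invariant chain of class II molecules, overlapped between ages (1301, 1056 and 697 at P21 and 1894, 972 and 862 in adults; adjusted p = 0.650).

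Clock genes, which cycle over the day, differed between the ages, and the hour of dissection is not stated. Of 18 genes of the clock and of glucocorticoid response 11 rose and 4 fell (9 and 4 without P21 replicate 2, 9 and 5 with the trend removed, and 7 rose with only these 2 ages in the fit). Tef, a transcription factor of the clock's output (chromosome 15, 81802673 to 81826863, mm10), stood at 9436, 8554 and 7879.9 at P21 and 13284, 16746 and 12679 in adults (log2 0.72 ± 0.10, adjusted p = 2.40e-04). Per2, a repressor of the clock, stood at 845, 873 and 637 at P21 and 1961, 3686 and 1607 in adults, adult replicate 2 the highest, and rose by 1.54 ± 0.23 (adjusted p = 3.42e-04). Arntl, the activator BMAL1 whose phase is opposite to that of the Per genes, ran the other way (1039, 925 and 1178 at P21 and 511, 319 and 716 in adults; log2 -1.09 ± 0.20, adjusted p = 0.00115), and its lowest adult library was again replicate 2. Sgk1 and Tsc22d3, both induced by glucocorticoids, fell by 1.26 ± 0.18 and 0.92 ± 0.13 (adjusted p = 2.88e-04 and 2.15e-04). Both went against the majority of their list, in which 11 genes rose and 4 fell, so they do not stand for all its glucocorticoid genes. Time of day and age cannot be told apart here.

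The start region of Tef (RefSeq, GRCm38.p6, chr15:81802423-81802722, plus strand) holds one E-box, CACGTG, the letters bound by CLOCK and BMAL1, in capitals and 127 bases before the start site.
Tef: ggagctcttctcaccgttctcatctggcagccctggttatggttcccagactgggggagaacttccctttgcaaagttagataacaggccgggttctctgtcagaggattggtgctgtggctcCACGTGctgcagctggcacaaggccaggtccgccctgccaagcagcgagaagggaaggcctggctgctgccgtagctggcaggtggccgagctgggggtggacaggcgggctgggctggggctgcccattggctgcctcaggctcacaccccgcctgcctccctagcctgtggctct
CACGTG, which reads the same on both strands, was in 6 of 16 list members with a window (Per1, Tef, Cry1, Ciart, Bhlhe41 and Fkbp5) and in 9.58% of genes tested, and TTATGTAA, the D-box that TEF itself binds, in 1 member (Per3) and 0.591%.

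Immediate early genes, which respond within minutes to activity or handling, were lower in adults. Of 17 genes 8 fell and 2 rose, the same counts without P21 replicate 2 and with the trend removed. Nr4a1, an orphan nuclear receptor of this class, stood at 1559, 1592 and 1722 at P21 and 655, 539 and 519 in adults (log2 -1.51 ± 0.17, adjusted p = 7.11e-05), with the adults all below every P21 library. Btg2, an antiproliferative factor, fell by 1.03 ± 0.12 and Zfp36, which destabilises inflammatory mRNA, by 1.12 ± 0.18 (adjusted p = 1.12e-04 and 4.28e-04). Jun and Atf3, which are also injury genes of neurons, were the ones called higher (log2 0.49 ± 0.14 and 0.64 ± 0.16, adjusted p = 0.0131 and 0.00547). No call of Jun was made without adult replicate 2 (adjusted p = 0.0638) and without the libraries high in Xist (adjusted p = 0.321). The call of Atf3 ended without the libraries high in Xist (adjusted p = 0.105). TGACGTCA, the cAMP response element through which activity drives many of these genes, was in the start regions of 2 of 13 members with a window (Dusp1 and Btg2) and of 2.95% of genes tested.

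Hormone and growth pathways changed in a few members. Dio2, the deiodinase that activates thyroid hormone, stood at 4158, 1700.4 and 2925 at P21 and 713, 509.7 and 744 in adults and fell by 2.08 ± 0.26 (adjusted p = 1.40e-04). Slco1c1, a thyroxine transporter, fell by 0.86 ± 0.12 (adjusted p = 2.07e-04). They were the 2 genes that fell of 11 in the thyroid list, 1 rose, and with the trend removed 6 fell. In the list of imprinted growth genes 7 of 15 rose and 1 fell, and 4 and 3 with the trend removed; 3 rose with only these 2 ages in the fit. H19, a noncoding RNA of growing tissue, was the one that fell (2310.2, 1803 and 2014 at P21 and 720.1, 545 and 610.1 in adults; log2 -1.71 ± 0.15, adjusted p = 3.52e-05). Its neighbour Igf2, the growth factor, did not pass (19125, 21951 and 17389 at P21 and 20752, 12036 and 22149.5 in adults; adjusted p = 0.606). Meg3, a long noncoding RNA that neurons express, rose from 46268 ± 17480.3 to 123918 ± 5113 (SD, n = 3; log2 1.49 ± 0.25, 0.71 with the trend removed; limma adjusted p = 6.34e-04). Qk, a splicing regulator of myelinating glia, did not pass (19252, 20994 and 18109.9 at P21 and 22773, 23878 and 20188 in adults; log2 0.19 ± 0.10, adjusted p = 0.113), and it fell with the length trend removed (-0.52, adjusted p = 0.0236).

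The respiratory chain shows how far the length trend reaches. Of 28 nuclear genes 15 fell and 3 rose, 12 and 3 without P21 replicate 2. With the trend removed the counts turned, to 3 that fell and 10 that rose, so no direction is given for the list. Cox8a, a short cytochrome oxidase subunit (550 bases), had a log2 fold change of -0.73 ± 0.15, and -0.049 with the trend removed (adjusted p = 0.00198 and 0.560). Uqcrc1, a core subunit of complex III, rose under both (0.49 ± 0.062 and 0.76, adjusted p = 1.40e-04 and 1.24e-04). In glycolysis 5 of 20 genes rose and 5 fell (8 and 2 with the trend removed, and 3 rose after quantile normalization). Hk1, the hexokinase of neurons, rose by 0.93 ± 0.13, while Ldha, the lactate dehydrogenase subunit of glycolytic tissue, fell by 0.92 ± 0.14 (adjusted p = 2.39e-04 and 3.03e-04).

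Several of the genes that rose furthest under the naming rule given below had 1 library far from its group. Chrnb3, a nicotinic receptor subunit, stood at 1.87, 0 and 3.91 at P21 and 1779, 24.1 and 295 in adults, Rgs8, a regulator of G protein signalling, at 10.3, 24.7 and 13.7 at P21 and 1132, 44.8 and 128 in adults, and Vgf, a secreted neuropeptide precursor, at 6.55, 14.4 and 9.78 at P21 and 1477, 32.8 and 124 in adults. Adult replicate 1 was the highest library for each, many times above adult replicate 2. Their fitted log2 fold changes, that of Chrnb3 against P21 counts near the floor, were 6.61 ± 1.69, 3.54 ± 1.09 and 4.09 ± 1.33 (adjusted p = 0.00661, 0.0172 and 0.0216). Chrnb3 lost its call without P21 replicate 2 and adult replicate 1 (adjusted p = 0.0856) and without the libraries high in Xist (adjusted p = 0.194). No call of Rgs8 was made without P21 replicate 2 and adult replicate 1 (adjusted p = 0.0794), without adult replicate 1 (adjusted p = 0.0789) and without the libraries high in Xist (adjusted p = 0.162). Vgf lost its call in 4 of 21 alternatives, among them the fits without P21 replicate 1 (0.0560) and without adult replicate 1 (0.102), with the adjusted p in brackets. Another set was low in P21 replicate 2: Arfgef3, of a family of guanine nucleotide exchange factors, stood at 1048, 106 and 1317 at P21 and 3158, 3327 and 3213 in adults. Without that library its log2 fold change was 1.46 in place of 2.61. The call of Arfgef3 ended with only these 2 ages in the fit (adjusted p = 0.0595).

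The late changes were set beside P14 against P3, from the same fit and with no library in common. In that earlier comparison 28.9% of genes rose and 29.2% fell. Of the genes that rose from P21 to adult, 1554 had also risen early (36.6% of the late rises and 32.1% of the early ones), 888 had fallen and 1801 had not been called. Of those that fell late, 1324 had also fallen early (32.9% of the late falls and 27.1% of the early ones), 1104 had risen and 1595 had not been called. These are counts with no test.

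The list counts stand side by side for P14 against P3, called early, and adult against P21, called late. Of 29 node genes 21 rose early and 22 late, and 17 did both. Of 22 synaptic vesicle genes 16 rose early and 18 late, and 14 did both. Scn8a, for one, stood at 1492 ± 448 at P3 and 6108 ± 612 at P14 (SD, n = 3) before its late rise. Of 21 peripheral myelin genes 19 rose early, 9 fell late and 8 did both, while 11 were not called late. Pmp22 was at 63319.9 ± 12732 at P3 and 241594 ± 25547 at P14 (SD, n = 3), and its adult mean of 59504 lay within 1 SD of the P3 mean. Of 22 cholesterol genes 13 rose early, 15 fell late and 10 did both. Of 24 cell cycle genes 23 fell early and 18 late, and 17 did both. Osteoclast genes, of the cells that resorb bone, had fallen in all 11 members by P14, and 3 of these 11 fell late (1 without adult replicate 3). Among the 3 was Ctsk, the cathepsin of bone resorption. Ctsk went from 3715 ± 387 at P14 to 1328 ± 221 at P21 and 514 ± 92.6 in adults (SD, n = 3, limma adjusted p = 3.61e-04 for the last step). In the erythroid list 1 gene rose and 0 fell from P3 to P14, and all 14 fell late.

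**Figure D4:**
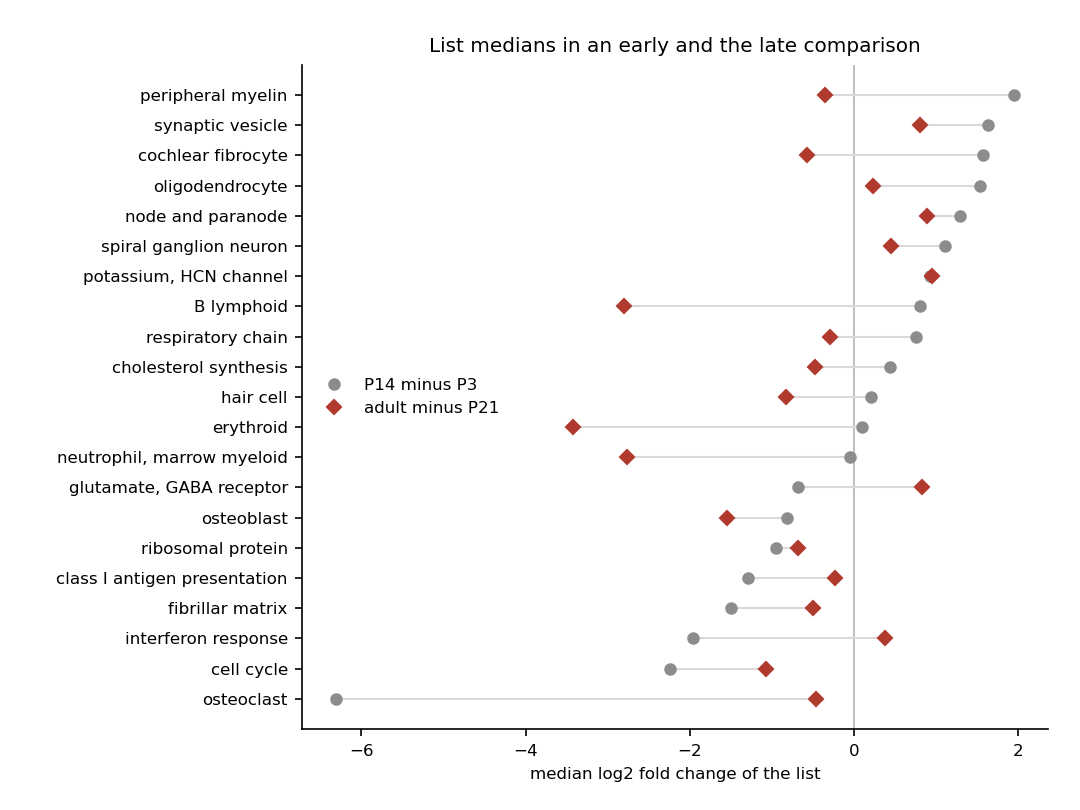
Median log2 fold change of 21 gene lists from P3 to P14 (grey circles) and from P21 to adult (red diamonds), joined by a line. Peripheral myelin lies at 1.95 early and -0.35 late, the erythroid list at 0.10 and -3.42, and the node list at 1.30 and 0.90.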

How the data were processed

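Total RNA of single mice was made into libraries with a TruSeq RNA kit, per the labels' protocols. The authors deposited a table of normalized counts, which is a signal of reads divided by a library's size factor, and Partek, TopHat2, DESeq2 and the mm10 build are named without version in the submitters' processing notes. Positive values under 1000 reads were whole numbers of reads times a library constant (100.0% of them, within 0.1); larger values were not checked, and read depth was recovered from that constant (35250155 to 42258738 reads). Rows are gene symbols with mm10 positions, and exonic lengths came from GENCODE M21 for 16449 of the genes tested. Because these are not raw counts, the test was limma 3.58.1 in R 4.3.3, with trend and robust empirical Bayes, fitted to log2(value + 1) of all 15 libraries with 1 coefficient per age (10 residual degrees of freedom), on genes that reached 10 normalized counts in 3 or more libraries. Errors after ± are standard errors of the log2 fold change unless called SD. The limma, edgeR and DESeq2 fits were run on simulated counts with known changes. That simulation held no length trend, outlying library or sex difference. edgeR 4.0.16 and DESeq2 1.42.0 on the recovered reads, TMM scaling, quantile normalization, other filters and pseudocounts, a replicate block, an Xist term, a fit of 2 ages, each library left out and the libraries high in Xist left out were alternatives. The fits with the length trend removed, and without both P21 replicate 2 and adult replicate 1, were chosen after seeing the data, as were the promoter motifs, searched on both strands of 1 window per gene in RefSeq's table (12864 genes tested had one).

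The gene lists were chosen with earlier results of these data known, so they are no independent evidence. Named genes are the 15 largest changes each way among called genes of at least 10 CPM in the higher age with no overlap and no predicted symbol, up to 4 called members per list by adjusted p plus those against its majority, and a set chosen by name; other names are said to be chosen after their values were seen. The text reports part of the 234 genes this rule gives, chosen with their values known; the others are not reported here. Replicates are separate mice, per the labels. Strand and the treatment of shared reads are not given in the sources used here, so near-identical genes (globins, Bglap and Bglap2, ribosomal proteins, C4b, class I genes) may share reads. Not every pair of same-numbered libraries deviated together (r = 0.152, -0.0465 and 0.0421 over genes), so numbers were not used as pairs.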

Additional observations from a re-analysis of the deposited data

How the results depend on the processing

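The precision is limited by 3 libraries per age. Under the 21 alternatives, the number of genes that rose stayed within 1.5 times of 4243 except with the length trend removed and P21 replicate 2 left out (2752) and without the libraries high in Xist (2088). The number that fell did so from 4023 except with only the 2 ages in the fit (2327) and without the libraries high in Xist (1899). The last setting leaves fewer samples; otherwise the cause was not tested. Genes called in the same direction as in P14 against P3 numbered 2878, and 1484 without the libraries high in Xist. Those called in the opposite direction numbered 1992, against 1211 without P21 replicate 2 and adult replicate 1, 1079 with the trend removed and P21 replicate 2 left out, 1160 with only the 2 ages and 914 without the libraries high in Xist. With a replicate block, 3722 rose and 3425 fell; the replicate numbers do not pair the samples. Leaving out 1 library gave 3484 to 4332 that rose and 3294 to 4182 that fell. Quantile normalization moved the share of rises among calls from 51.3% to 47.3%.

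Among the genes named, the log2 fold change turned sign as follows, with the value under each setting. Without the libraries high in Xist Mbp 0.037 and Mog 1.11. Without P21 replicate 2 and adult replicate 1 Mog 0.27 and Cd74 -0.056. With the trend removed and P21 replicate 2 left out Mog 0.65, Pvalb 0.11, Gap43 0.061 and Qk -0.25. With a term for high Xist Mobp -0.0077. With the length trend removed Pvalb 0.12, Gap43 0.048 and Qk -0.52. After quantile normalization Qk -0.036. Leaving out 1 library at a time gave -0.89 to 0.47 for Mog, -0.11 to 0.46 for Cd74 and -0.30 to 0.14 for Igf2.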

Other observations

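Calls in the lists of vessel cells went both ways, against 49.4% of all genes called. Of 16 endothelial genes 2 rose and 2 fell, and of 11 genes of pericytes and smooth muscle 2 rose and 3 fell. Flt1, a VEGF receptor, stood at 1138, 566 and 1247 at P21 and 2671, 2163 and 2055 in adults (log2 1.29 ± 0.26, adjusted p = 0.00170, limma), and Notch3, the Notch receptor of mural cells, at 982, 504 and 1199 at P21 and 2054, 2212 and 1599 in adults (log2 1.20 ± 0.28, adjusted p = 0.00421). The adults were higher than every P21 library for both. With the length trend removed these values were 0.69 and 0.75. Tek, the angiopoietin receptor, fell by 0.35 ± 0.080 and Des, the desmin of muscle and mural cells, by 0.58 ± 0.14 (adjusted p = 0.00387 and 0.00416). Col4a2, a chain of vessel and Schwann cell basement membrane, fell by 0.85 ± 0.20 (adjusted p = 0.00443). In the basement membrane list 3 of 16 fell and 2 rose, 6 and 2 without P21 replicate 2, 1 fell without P21 replicate 3, and 7 and 0 with the length trend removed.

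Another pair of genes kept their call in every alternative: Casq1, the calsequestrin of skeletal muscle, was counted at 327, 381 and 366 at P21 and 114, 149.8 and 101 in adults (log2 -1.57 ± 0.15, adjusted p = 5.10e-05), and Cdkn1a, the cell cycle inhibitor p21, at 4908, 4120.5 and 5438 at P21 and 2922, 2761 and 3262 in adults (log2 -0.69 ± 0.12, adjusted p = 7.46e-04). Both were lower in every adult library than in any library at P21. Casq1 was the 1 gene that fell of 11 in the skeletal muscle list, where 1 rose, 9 were not called and the median was 0.23. Fgfr3, a fibroblast growth factor receptor of astrocytes and of cochlear supporting cells, fell by 0.86 ± 0.18 (adjusted p = 0.00212). The astrocyte list did not share a direction: of 11 genes 2 fell, 1 rose and 8 were not called, with a median of 0.21.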
